A study of Mus musculus with 47 samples.

Results

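The 10 genes described here encode enzymes that make and acetylate polyamines and that route arginine, ornithine and citrulline through the gut wall. Odc1, Amd1, Srm, Sms and Sat1 serve polyamines, and Arg2, Otc, Cps1, Ass1 and Oat serve ornithine and citrulline. The 10 genes were picked by symbol from a table of 38087 genes, and each symbol matched 1 row. All 10 passed the filter on low counts in every comparison. RNA of small intestine came from adult male C57BL/6J mice with free access to food, 15 to 16 weeks old, that were either germ-free (GF, reared without microbes) or conventionally raised (convR, carrying a normal gut flora). Ileum, the last segment, and duodenum, the first, were sampled every 4 h over a day, from ZT2 to ZT22, where zeitgeber time (ZT) counts the hours since the lights came on. This gave 11 GF ileum, 12 convR ileum, 12 GF duodenum and 12 convR duodenum libraries, with 2 per time except the single GF ileum library of ZT2.

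Polyamines are small, positively charged molecules that dividing cells need, and the intestinal epithelium, which renews itself throughout life, is rich in them. Ornithine decarboxylase (Odc1) makes putrescine from ornithine and is the main controlled step. Adenosylmethionine decarboxylase (Amd1) supplies the aminopropyl groups that spermidine synthase (Srm) and spermine synthase (Sms) add, and spermidine/spermine acetyltransferase (Sat1) starts the way back. Arginase 2 (Arg2) splits arginine into ornithine and urea in mitochondria. Carbamoyl phosphate synthetase (Cps1) and ornithine transcarbamylase (Otc), known from the hepatic urea cycle, also work in enterocytes, where they make the citrulline that the gut releases for the kidney. Argininosuccinate synthase (Ass1) would turn citrulline onward to arginine, and ornithine aminotransferase (Oat) connects ornithine with glutamate and proline. Gut microbes also make polyamines, so the gut holds both host and microbial sources.

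Upstream sequence was available for 7 of the 10 genes from RefSeq (GRCm38.p6). It is shown for 3 of them, because Odc1 and Otc were higher in GF mice in both tissues while Amd1, the partner of Odc1 in the pathway, was not called in either. Capitals mark GGGCGG (the GC box) on either strand; the CCAAT box, the E-box (CACGTG) and the TATA box (TATAAA) were searched in the same way. The Odc1 stretch is chr12:17544623-17544793 on the plus strand, the Otc stretch chrX:10252055-10252304 on the plus strand and the Amd1 stretch chr10:40302189-40302438 on the minus strand, and each ends just before the annotated start.
Odc1: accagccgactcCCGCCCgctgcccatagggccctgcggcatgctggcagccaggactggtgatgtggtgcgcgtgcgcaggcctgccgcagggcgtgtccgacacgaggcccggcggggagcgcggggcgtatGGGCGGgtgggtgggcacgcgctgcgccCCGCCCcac
Otc: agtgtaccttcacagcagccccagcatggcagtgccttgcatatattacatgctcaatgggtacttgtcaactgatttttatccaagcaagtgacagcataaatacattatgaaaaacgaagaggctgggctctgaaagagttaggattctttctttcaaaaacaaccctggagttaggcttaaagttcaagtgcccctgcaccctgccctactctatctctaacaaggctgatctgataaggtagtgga
Amd1: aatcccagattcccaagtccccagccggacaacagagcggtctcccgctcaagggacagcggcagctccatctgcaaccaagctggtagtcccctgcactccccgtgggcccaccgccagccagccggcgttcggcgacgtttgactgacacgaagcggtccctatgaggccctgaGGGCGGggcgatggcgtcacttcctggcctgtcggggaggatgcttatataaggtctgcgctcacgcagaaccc
In the 250 bases before its RefSeq start, Odc1 held 4 GC boxes, of which 3 lie in the stretch shown, and 80% of its bases were G or C. Otc held none of the 4 motifs and had 43.6% G and C, while Amd1 held 1 GC box at 64.4%. Among 32851 mouse windows of that length the median was 52.4% G and C, and 32.7% held a GC box, 33.8% a CCAAT box, 6.02% the E-box and 12.4% the TATA box. These matches describe letters only. Exact letters were searched, so close forms such as the tatataa near the end of the Amd1 stretch were not counted.

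Depth was 22.6 to 41.9 M counted reads per library (median 31.9 M), and replicates differed well beyond counting noise (chi-square per degree of freedom 18.4 to 159 over 23 pairs). A total of 11 libraries passed limits that were chosen with the values in view, and are called apart here: 9 from duodenum (3 GF and 6 convR) by transcripts of pancreas or stomach or by their scaling factor, and 2 from ileum (1 GF and 1 convR) by low Fabp6, the ileal bile acid binding protein. Markers separated the tissues as labelled: all 6 ileum markers were higher and all 4 duodenum markers were lower in ileum than in duodenum in both GF and convR mice. The labels do not say whether the replicates came from separate mice, so p-values measure the spread between these libraries. In these bulk samples fewer cells of a type and less RNA per cell cannot be told apart.

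Read per length (FPKM, which is CPM, the count scaled to library size, per kilobase of exon), Oat, Cps1 and Arg2 led in every group. In ileum Oat stood first at 382 ± 39.2 FPKM in GF and 355 ± 65.4 in convR mice (SD, n = 11 and 12). Cps1 came next there at 169 ± 12.4 FPKM in GF and 170 ± 22.5 in convR mice, and Arg2 reached 91.4 ± 24.3 FPKM in GF and 64.0 ± 24.6 in convR mice. In duodenum Arg2 stood first instead, at 486 ± 58.8 FPKM in GF and 330 ± 83.5 in convR mice (n = 12 each). Cps1 and Oat followed in duodenum within each other's spread, at 253 ± 40.2 and 225 ± 53.9 FPKM in GF mice and at 254 ± 27.8 and 248 ± 44.0 in convR mice. Odc1, Otc and Sat1 formed a middle tier of 33.4 to 73.9 FPKM, in which Odc1 was the highest except in convR ileum, where Sat1 averaged 49.2 ± 4.58 and Odc1 43.7 ± 9.88 FPKM. Amd1 averaged 9.83 to 11.4 FPKM, Srm 4.56 to 7.01, Sms 2.44 to 3.09 and Ass1 2.37 to 3.46. The lowest pair, Sms and Ass1, did not differ beyond their spread in any group. By mean transcript level, Ass1 was thus the lowest of Arg2, Otc, Cps1, Ass1 and Oat in all 4 groups.

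**Figure D1:**
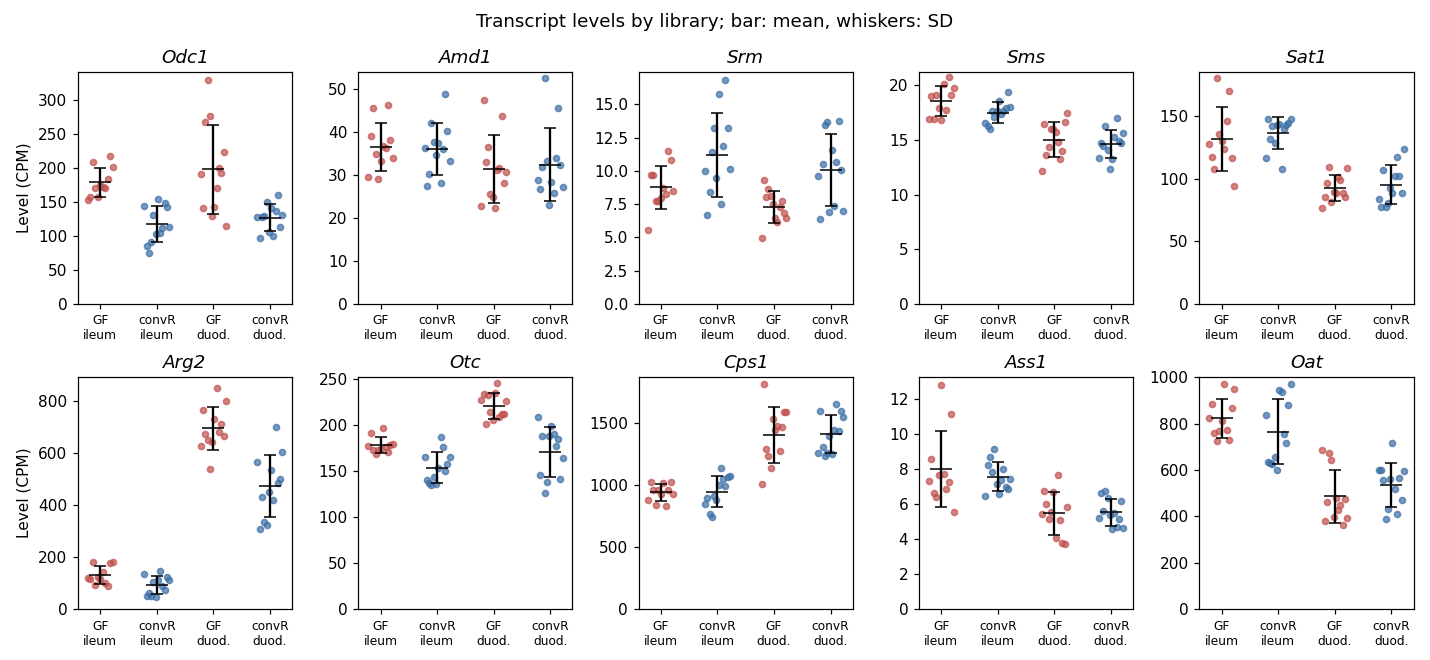
Level of each of the 10 genes (vertical axis, CPM, from 0) in every library of GF ileum, convR ileum, GF duodenum and convR duodenum, with the mean as a bar and the SD as whiskers. Arg2 stands at 89.9 to 181 CPM in GF ileum and 539 to 852 CPM in GF duodenum, and the GF libraries of Odc1 lie mostly above the convR ones.

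Absence of microbes went with higher Odc1, Arg2 and Otc and lower Srm, in both tissues. Among the 10 genes, 3 rose and 1 fell in GF ileum, where 19.5% of 18082 genes rose and 22.4% fell. In GF duodenum again 3 rose and 1 fell, against 22.5% and 23.8% of 17986 genes. These shares are near those of all genes, so the number called is not a result about these enzymes. The median log2 change over the 10 was 0.08 in ileum and -0.02 in duodenum, beside 0.01 and -0.01 over all genes. The same 4 genes were called in both tissues, with the same sign. All calls here are edgeR quasi-likelihood tests with time as a factor and Benjamini-Hochberg adjustment over all genes at a threshold of 0.05.

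Odc1 had the largest estimated change of the 10 in both tissues. Arg2 was close, at 0.57 ± 0.22 in ileum and 0.58 ± 0.11 in duodenum on the log2 scale (SE), so their order is uncertain. The level of Odc1 in ileum ran from 154 to 218 CPM (median 172) in GF and from 75.3 to 155 CPM (median 113) in convR mice. In duodenum it ran from 114 to 329 CPM (median 192) in GF and from 97.5 to 160 CPM (median 129) in convR mice. The groups overlapped, but 10 of 11 GF ileum and 8 of 12 GF duodenum libraries exceeded the highest convR library of their tissue. The log2 change was 0.65 ± 0.09 (SE) in ileum, 1.57-fold, with an edgeR adjusted p of 5.44e-06. In duodenum it was 0.61 ± 0.11, 1.52-fold, with an edgeR adjusted p of 9.81e-05. GF means were higher at all 6 times in both tissues, by as little as 0.23 (ZT2) in ileum and 0.04 (ZT22) in duodenum and by up to 0.81 (ZT10) and 0.93 (ZT18) on the log2 scale. Both GF duodenum libraries and convR duodenum replicate 2 of ZT22 were among those called apart.

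The spermidine branch did not follow Odc1. Srm was low throughout, at 5.52 to 11.5 CPM (median 8.51) in GF ileum and 6.65 to 16.9 CPM (median 10.8) in convR ileum. In duodenum it measured 4.93 to 9.33 CPM (median 7.43) in GF and 6.35 to 13.7 CPM (median 10.3) in convR mice. The groups overlapped in both tissues, and none of the 12 GF duodenum libraries exceeded the convR median. Srm fell by 0.32 ± 0.11 on the log2 scale in GF ileum (edgeR adjusted p = 0.0187) and by 0.43 ± 0.11 in GF duodenum (edgeR adjusted p = 0.00319). The ileum call rested on GF ileum ZT2 replicate 2, without which the log2 change was -0.28 with an edgeR adjusted p of 0.0553. At ZT6 the Srm mean was 7.12 CPM in GF and 7.10 in convR ileum, and 7.74 CPM in GF and 6.86 in convR duodenum, so the lower GF level was not seen at that time. Nor was it at ZT22 in duodenum, with 7.00 CPM in GF and 6.93 CPM in convR mice. In duodenum, both convR libraries and GF replicate 1 of ZT6 were among those called apart. So were both GF libraries and convR replicate 2 of ZT22.

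Amd1, Sms and Sat1 passed no test between GF and convR mice. Amd1 differed by 0.02 ± 0.06 in ileum and -0.03 ± 0.09 in duodenum on the log2 scale, Sms by 0.08 ± 0.05 in ileum and 0.04 ± 0.06 in duodenum, and Sat1 by -0.06 ± 0.09 in ileum and -0.03 ± 0.07 in duodenum. Amd1 has a near-identical copy, Amd2, whose own row held only 0.43 to 0.58 CPM on average, and how reads were split between them is not stated.

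On the ornithine side, Arg2 was the second gene to rise. In ileum it measured 89.9 to 181 CPM (median 118) in GF and 47 to 145 CPM (median 96.4) in convR mice. Duodenum held far more, 539 to 852 CPM (median 677) in GF and 309 to 701 CPM (median 468) in convR mice. All 12 GF duodenum libraries lay above the convR median, and 5 lay above every convR library. The log2 change was 0.57 ± 0.22 in ileum (edgeR adjusted p = 0.0419) and 0.58 ± 0.11 in duodenum (edgeR adjusted p = 0.000228), 1.49-fold in each. GF means were higher at all 6 times in duodenum and at 5 of 6 in ileum. At ZT2 ileum held 116 CPM in GF (1 library) and 122 CPM in convR mice. The widest gap in duodenum, 1.15 on the log2 scale at ZT6, included both convR libraries and GF replicate 1, which were called apart. The ileum call was fragile. Leaving out any of 13 single libraries put the edgeR adjusted p between 0.0507 and 0.0801, with log2 changes of 0.47 to 0.59: GF ileum ZT6, ZT18 and ZT22 replicate 2, ZT14 replicate 1 and both of ZT10, and convR ileum ZT2 replicate 2, ZT6, ZT10, ZT18 and ZT22 replicate 1 and both of ZT14. In duodenum, without the 9 libraries that stood apart, the change was 0.37 with an edgeR adjusted p of 0.0559. Arg2 shares 285 exon bases with Vti1b and 116 with the antisense gene Gm48780 on the other strand (GENCODE M21), and the strand setting of the counting is not given, so its counts are uncertain. Vti1b averaged 74.1 CPM in GF and 60.1 in convR ileum, and 55.5 CPM in GF and 59.2 in convR duodenum. It rose by 0.31 ± 0.05 on the log2 scale in GF ileum (edgeR adjusted p = 1.66e-05), and its part in the Arg2 change there was not tested.

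Otc was the third gene to rise. In ileum it measured 168 to 197 CPM (median 177) in GF and 135 to 187 CPM (median 152) in convR mice. In duodenum GF libraries held 201 to 246 CPM (median 221) and convR libraries 126 to 209 CPM (median 181). Of the GF libraries, 2 of 11 in ileum and 9 of 12 in duodenum exceeded every convR library. The log2 change was 0.21 ± 0.05 in ileum, 1.16-fold (edgeR adjusted p = 0.00262), and 0.39 ± 0.07 in duodenum, 1.31-fold (edgeR adjusted p = 5.63e-05). GF means were higher at all 6 times in both tissues. The coefficient of variation was 4.89% in GF and 10.9% in convR ileum, and 6.38% in GF and 15.8% in convR duodenum.

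Cps1, which works directly before Otc, measured 829 to 1027 CPM in GF and 744 to 1137 CPM in convR ileum, and 1006 to 1815 CPM in GF and 1232 to 1650 CPM in convR duodenum. Its log2 differences were -0.01 ± 0.07 in ileum and -0.01 ± 0.08 in duodenum. Ass1 differed by 0.08 ± 0.11 in ileum and -0.03 ± 0.10 in duodenum, and Oat by 0.12 ± 0.09 in ileum and -0.14 ± 0.11 in duodenum. None of these passed the test, and the errors leave room for changes of about the size seen for Otc in ileum in Ass1 and Oat.

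**Figure D2:**
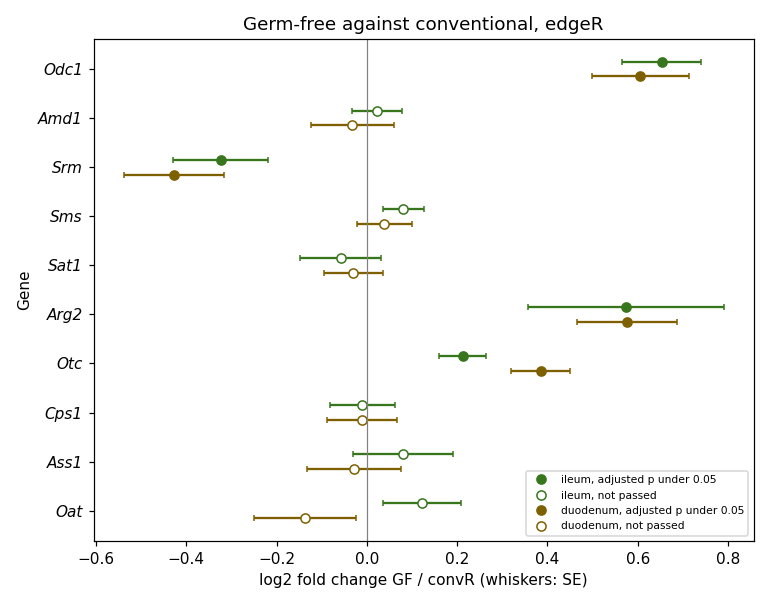
Log2 fold change GF over convR (horizontal axis, whiskers are SE) of the 10 genes in ileum and duodenum, filled where the edgeR adjusted p was under 0.05. Odc1, Arg2 and Otc lie right of 0 and Srm left of 0 in both tissues, and the other 6 genes are unfilled.

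Cell type markers moved between the same groups. Of 10 cell cycle genes, 9 fell in GF ileum and 10 in GF duodenum (median log2 change -0.24 and -0.45). Their summed level was 722 to 902 CPM in GF and 787 to 1065 CPM in convR ileum, and 485 to 681 CPM in GF and 674 to 998 CPM in convR duodenum. Enterocyte markers rose for 4 of 10 and fell for 1 in GF ileum and rose for 6 in GF duodenum, with summed levels of 30580 to 53480 CPM in GF and 21910 to 40790 in convR ileum, and 48390 to 71360 CPM in GF and 19090 to 57940 in convR duodenum. All 10 macrophage markers fell in both tissues. Their summed level was 114 to 158 CPM in GF and 229 to 335 in convR ileum, and 152 to 225 CPM in GF and 256 to 461 in convR duodenum. Lymphocyte markers fell for 9 of 10 in GF ileum and 10 of 10 in GF duodenum, with sums of 56.8 to 138 CPM in GF and 658 to 1364 in convR ileum, and 191 to 438 CPM in GF and 1338 to 2454 in convR duodenum. Over GF and convR libraries together, Jchain had the highest mean of these markers, 885 CPM in duodenum and 430 in ileum. Ptprc followed at 76.0 CPM in duodenum and 57.6 in ileum, so these sums lean on Jchain. Of 10 smooth muscle markers 9 rose in GF ileum and 1 in GF duodenum. The part of these shifts in the changes of Odc1, Srm, Arg2 and Otc was not tested. Without the libraries that stood apart, Odc1 changed by 0.63 in ileum and 0.75 in duodenum, Srm by -0.35 and -0.61 and Otc by 0.24 and 0.33, all past the edgeR threshold.

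Neighbouring enzymes of the same pathways give the setting. Among 25 other polyamine genes, 23 could be tested: 5 rose and 3 fell in GF ileum, and 4 rose and 5 fell in GF duodenum. Of all genes, 19.5% rose and 22.4% fell in GF ileum, and 22.5% rose and 23.8% fell in GF duodenum. The polyamine transporter Slc18b1 rose by 0.36 ± 0.08 in ileum and 0.39 ± 0.09 in duodenum. Spermine oxidase (Smox) fell by 0.62 ± 0.10 and 0.93 ± 0.13. In ileum the transporter Atp13a3 rose by 0.23 ± 0.05 and Eif5a2, a factor that carries the spermidine-derived residue hypusine, fell by 0.59 ± 0.11. In duodenum antizyme 1 (Oaz1), which binds the Odc1 protein and sends it for degradation, rose by 0.29 ± 0.06 and Mtap, which salvages methionine from a by-product of Srm and Sms, fell by 0.45 ± 0.06.

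Of 35 other genes of arginine, ornithine, citrulline and proline metabolism, 33 were tested in ileum (10 rose, 9 fell) and 34 in duodenum (12 rose, 4 fell). Beside these counts, 19.5% of all genes rose and 22.4% fell in GF ileum, and 22.5% rose and 23.8% fell in GF duodenum. In ileum the cationic amino acid transporter Slc7a2 rose by 0.68 ± 0.06. Inducible nitric oxide synthase (Nos2), which competes for arginine, averaged 17.2 ± 9.21 CPM in GF and 188 ± 114 CPM in convR ileum, a log2 change of -3.48 ± 0.33. Gatm, which uses arginine for creatine, fell by 0.78 ± 0.09 there. In duodenum the mitochondrial ornithine carrier Slc25a15 rose by 0.67 ± 0.06 and proline dehydrogenase 2 (Prodh2) by 1.2 ± 0.16, the second at a mean of 1.45 CPM in GF and 0.63 CPM in convR mice. The lists had medians of 0.01 and -0.01 for polyamine genes and 0.03 and 0.09 for arginine genes in ileum and duodenum.

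Whether the GF change differs between the tissues was tested as an interaction, which called 12.3% of 19000 genes (2331) and 0 of the 10 enzymes. At an unadjusted edgeR p under 0.05, which 4841 of the 19000 genes passed, none of the 10 did. DESeq2 called 0 of the 10 as well. The largest estimates were 0.27 ± 0.15 for Oat (edgeR adjusted p = 0.262) and -0.17 ± 0.08 for Otc (edgeR adjusted p = 0.198), ileum minus duodenum. For Odc1 it was 0.05 ± 0.15 and for Arg2 0.00 ± 0.23, so a tissue difference as large as the Otc change itself is within the error. Of the surrounding genes, 3 of 23 polyamine genes were called (Eif5a2 -0.76, Enoph1 0.25, Mtap 0.29) and 9 of 34 arginine genes, led by Slc25a15 (-0.60), the proline-breakdown enzyme Aldh4a1 (-1.33), Nos2 (3.29) and Pycr1 (0.79). Nos2 in convR duodenum had a median of 11.5 CPM and 1 library at 732 CPM.

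More of these enzymes were called between ileum and duodenum than between GF and convR mice, 9 in GF and 7 in convR mice, and all genes were called more often there as well. In GF mice 6 of the 10 were higher in ileum than in duodenum and 3 lower, against 33.2% and 33.4% of 17909 genes. In convR mice 5 were higher and 2 lower, against 24.9% and 24.8% of 18164 genes. The number called is therefore not a result about these enzymes. The median log2 difference over the 10 was 0.22 in GF and 0.17 in convR mice, beside 0.01 over all genes in each.

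Arg2 had by far the largest difference of the 10. Its mean was 131 ± 34.7 CPM in GF ileum and 695 ± 83.9 in GF duodenum, and 91.3 ± 35.1 CPM in convR ileum and 472 ± 119 in convR duodenum. The tissues did not overlap in either status. The log2 difference was -2.42 ± 0.13 in GF (edgeR adjusted p = 3.27e-12) and -2.39 ± 0.20 in convR mice (edgeR adjusted p = 6.79e-09). Cps1 was also lower in ileum, by 0.58 ± 0.07 in GF and 0.58 ± 0.08 in convR mice on the log2 scale, without overlap in convR mice. Otc was lower by 0.31 ± 0.04 in GF mice, where the tissues did not overlap, and its difference of -0.14 ± 0.07 in convR mice did not pass (edgeR adjusted p = 0.117).

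Oat ran the other way. It averaged 824 ± 84.6 CPM in GF ileum and 486 ± 116 in GF duodenum, without overlap, and 766 ± 141 CPM in convR ileum and 535 ± 94.8 in convR duodenum, with overlap. The log2 difference was 0.79 ± 0.11 in GF and 0.53 ± 0.09 in convR mice. Sat1 was higher in ileum by 0.50 ± 0.10 in GF and 0.53 ± 0.07 in convR mice, Ass1 by 0.57 ± 0.14 and 0.45 ± 0.07, and Sms by 0.30 ± 0.05 and 0.26 ± 0.05. Each of these passed in both.

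The polyamine-making genes showed small tissue differences. Amd1 was higher in ileum by 0.21 ± 0.08 in GF (edgeR adjusted p = 0.0326) and 0.18 ± 0.06 in convR mice (edgeR adjusted p = 0.0169). Without the libraries numbered 2 these became 0.12 (edgeR adjusted p = 0.583) and 0.11 (edgeR adjusted p = 0.461). Srm was higher by 0.24 ± 0.10 in GF mice (edgeR adjusted p = 0.033), and its 0.16 ± 0.09 in convR mice did not pass. Its direction turned without the libraries numbered 2, to -0.06 in GF and -0.02 in convR mice. With those numbered 1 left out, it was 0.44 (edgeR adjusted p = 0.00203) and 0.30 (edgeR adjusted p = 0.0072). Odc1 differed by -0.11 ± 0.12 in GF and -0.13 ± 0.09 in convR mice and passed in neither, but without the libraries that stood apart it was lower in GF ileum by a log2 difference of -0.29 (edgeR adjusted p = 0.0329).

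**Figure D3:**
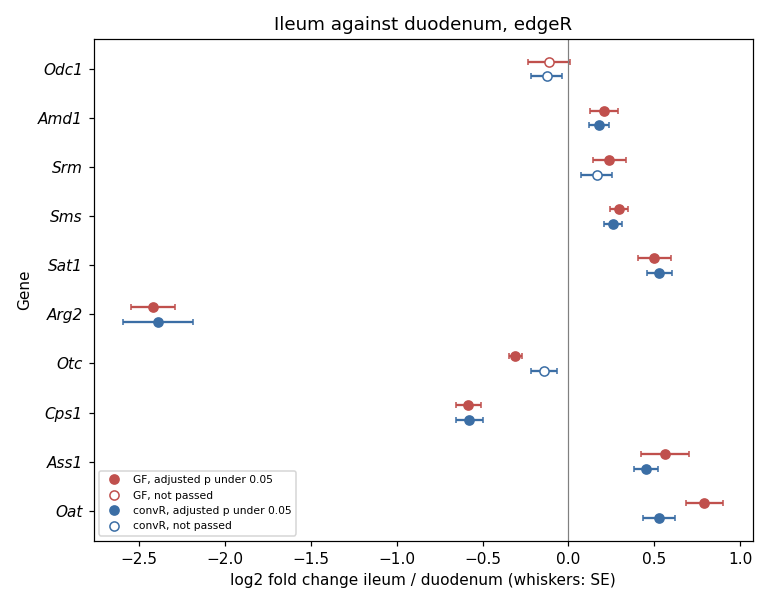
Log2 fold change ileum over duodenum (horizontal axis, whiskers are SE) of the 10 genes in GF and convR mice, filled where the edgeR adjusted p was under 0.05. Arg2 lies at -2.42 in GF and -2.39 in convR mice, Cps1 is lower in ileum in both, and Oat, Sat1, Ass1 and Sms are higher in ileum in both.

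Around them, 9 of 23 polyamine genes were higher and 12 lower in GF ileum than in GF duodenum, and 4 higher and 8 lower in convR mice. Of all genes, 33.2% were higher and 33.4% lower in GF ileum, and 24.9% higher and 24.8% lower in convR ileum. Smox was higher in ileum by 1.38 ± 0.10 in GF and 1.05 ± 0.12 in convR mice, Enoph1 by 0.78 ± 0.05 and 0.54 ± 0.06 and Atp13a3 by 0.89 ± 0.06 and 0.64 ± 0.07, while agmatinase (Agmat) was lower by 1.71 ± 0.10 and 1.83 ± 0.11. Of 34 arginine genes 11 were higher and 15 lower in GF mice and 10 higher and 13 lower in convR mice. Ddah1, which frees citrulline from methylated arginine, was higher in ileum by 4.75 ± 0.16 in GF and 4.60 ± 0.22 in convR mice. In GF mice Nos2 averaged 17.2 CPM in ileum and 0.37 CPM in duodenum, a log2 difference of 5.5 ± 0.30, and Got1 was lower in ileum by 1.17 ± 0.06. In convR mice Got2 was lower in ileum by 0.66 ± 0.07. Prodh2 was lower in ileum in both.

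Tissue make-up differed as well. All 10 smooth muscle markers were higher in ileum in both GF and convR mice, with summed levels of 2184 to 2975 CPM in GF ileum and 812 to 1162 CPM in GF duodenum, and 1599 to 2425 CPM in convR ileum and 676 to 1443 CPM in convR duodenum. Enterocyte markers were higher for 2 and lower for 5 of 10 in GF ileum, and higher for 4 and lower for 5 in convR ileum. Cell cycle genes were higher for 9 of 10 in GF and 2 of 10 in convR ileum. Macrophage markers were lower for 6 of 10 in GF ileum, and lower for 6 and higher for 2 in convR ileum. Their summed level was 114 to 158 CPM in GF ileum and 152 to 225 in GF duodenum, and 229 to 335 CPM in convR ileum and 256 to 461 in convR duodenum. Lymphocyte markers were lower for 6 of 10 in GF and 5 of 10 in convR ileum, with sums of 56.8 to 138 CPM in GF ileum and 191 to 438 in GF duodenum, and 658 to 1364 CPM in convR ileum and 1338 to 2454 in convR duodenum. Jchain had the highest mean of the lymphocyte markers in both tissues. The part of these shifts in the differences of the 10 enzymes was not tested.

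Time of day was examined with a 24 h cosine. None of the 10 enzymes was called rhythmic by edgeR in any group, where the share of all genes called was 1.39% in GF ileum, 0.133% in convR ileum, 2.68% in GF duodenum and 0.0301% in convR duodenum. The edgeR calls numbered 226 genes in GF ileum, 22 in convR ileum, 432 in GF duodenum and 5 in convR duodenum, and those of DESeq2 638, 287, 1085 and 463 in the same order. At an unadjusted edgeR p under 0.05 Amd1 passed in all 4 groups, Srm in GF ileum and convR duodenum, Odc1 in GF duodenum and Oat in convR duodenum. Of all genes, 1920 of 16300 passed that limit in GF ileum and 1447 of 16564 in convR ileum. In duodenum 2701 of 16097 passed in GF and 1846 of 16616 in convR mice.

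The fitted times that follow describe curves that did not pass the edgeR test. A least-squares cosine on log2(CPM + 0.5) put the peak of Amd1 at ZT13.5 ± 0.9 h in GF and ZT16.7 ± 1.2 h in convR ileum, and at ZT11.1 ± 1.4 h in GF and ZT13.8 ± 0.9 h in convR duodenum. Its peak-to-trough range was 0.49 ± 0.13 in GF and 0.46 ± 0.15 in convR ileum and 0.62 ± 0.23 in GF and 0.74 ± 0.17 in convR duodenum on the log2 scale. The highest time mean was ZT14 in each group, at 46.0 CPM in GF and 45.6 in convR ileum and at 40.2 CPM in GF and 49.1 in convR duodenum. In GF duodenum the Amd1 mean at ZT6 was nearly as high, 39.4 CPM, with 32.4 CPM at ZT10 between them. The edgeR adjusted p was 0.127 in GF ileum and 0.137 in convR duodenum, where DESeq2 gave adjusted p values of 0.0296 and 0.0078. The fitted peak of Srm was at ZT15.1 ± 1.4 h in GF and ZT17.4 ± 1.8 h in convR ileum, and at ZT13.1 ± 1.7 h in GF and ZT14.5 ± 1.5 h in convR duodenum. Odc1 in GF duodenum had the widest range, 0.95 ± 0.28 with a peak at ZT13.4 ± 1.1 h, against 0.28 ± 0.18 in convR duodenum. Its mean there was 167 CPM at ZT2, 156 at ZT6, 234 at ZT10, 261 at ZT14, 250 at ZT18 and 122 at ZT22 in GF mice, against 135, 98.8, 133, 145, 132 and 119 CPM in convR mice. The GF duodenum libraries called apart were both of ZT22 and replicate 1 of ZT6. Those of convR duodenum were both of ZT6, both of ZT14, and replicate 2 of ZT2 and ZT22. For Odc1 in GF duodenum the edgeR adjusted p was 0.136, and the DESeq2 adjusted p was 0.0127. The fitted range of Cps1 was 0.01 ± 0.11 in GF and 0.12 ± 0.17 in convR ileum. In duodenum it was 0.08 ± 0.21 in GF and 0.06 ± 0.14 in convR mice. Its time means in duodenum still ran from 1223 CPM (ZT2) to 1644 CPM (ZT6) in GF and from 1252 CPM (ZT2) to 1516 CPM (ZT6) in convR mice.

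**Figure D4:**
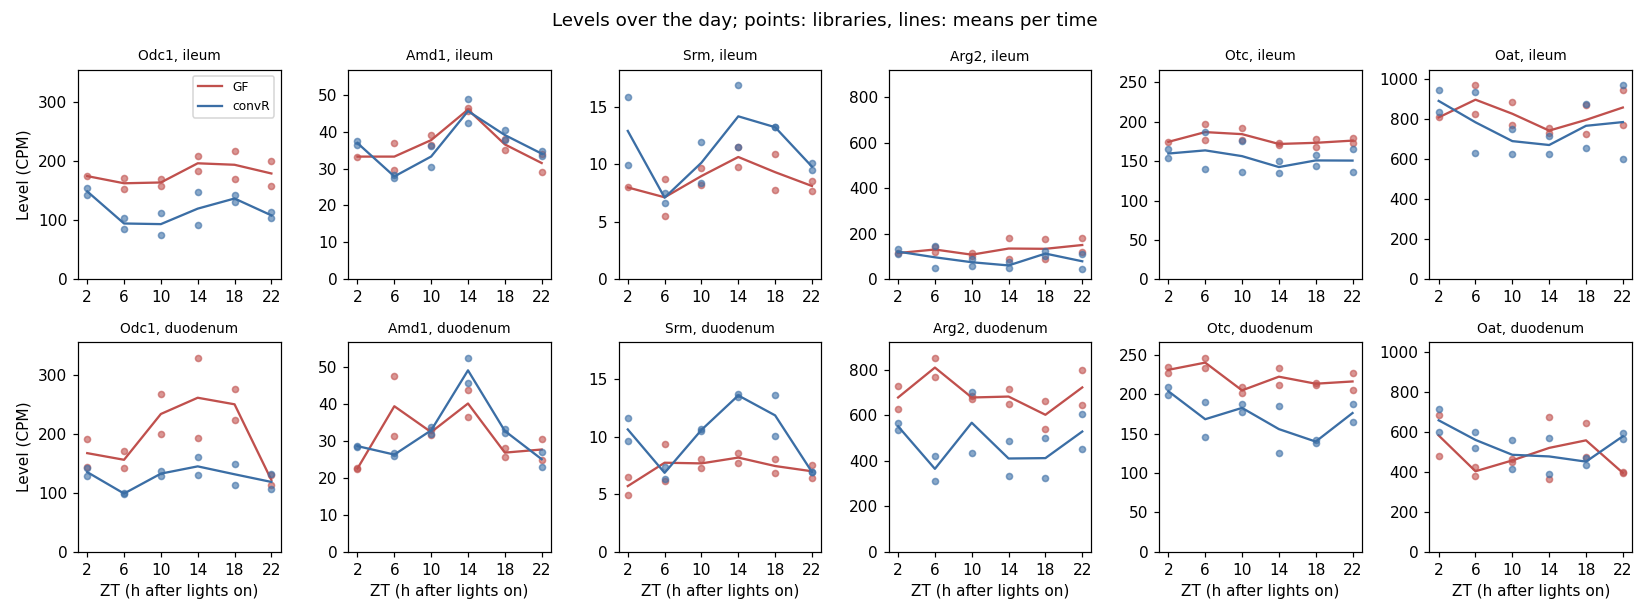
Levels (vertical axis, CPM, from 0) of Odc1, Amd1, Srm, Arg2, Otc and Oat against zeitgeber time (hours), with ileum above duodenum, points for libraries and lines through the means of GF and convR mice. Amd1 has its highest mean at ZT14 in all 4 groups, with ZT6 nearly as high in GF duodenum. Odc1 in GF duodenum reaches 261 CPM at ZT14.

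A difference of rhythm between GF and convR mice was called for 0% of genes in ileum and in duodenum and for 0 of the 10 enzymes (608 and 739 genes at an unadjusted p under 0.05, 0 genes by DESeq2). Among the 10, Sms in duodenum had the smallest unadjusted edgeR p, 0.0406. With time as a factor, dependence of the GF change on time was likewise called by edgeR for 0% of genes (495 in ileum and 923 in duodenum at an unadjusted p under 0.05, 37 and 105 by DESeq2) and for 0 of the 10. Without the filter on low counts edgeR called 1098 genes in ileum, Arg2 among them (adjusted p = 5.36e-05), and 1604 in duodenum, with Amd1 (adjusted p = 0.0181) and Srm (adjusted p = 0.0295). With the filter the unadjusted edgeR p was 0.711 for Arg2 in ileum, and 0.00743 for Amd1 and 0.00791 for Srm in duodenum. Among the related genes, Aldh18a1, which makes pyrroline-5-carboxylate from glutamate, was called rhythmic by edgeR in GF ileum, GF duodenum and convR duodenum, with peak-to-trough ranges of 0.89, 1.28 and 1.12. Aldh4a1 (1.58), Got1 (0.71), Slc25a12 (0.57) and antizyme inhibitor 2 (Azin2, 1.21) were called in GF duodenum and antizyme inhibitor 1 (Azin1, 0.48) in GF ileum.

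Correlations over the 47 libraries, after each group of tissue and status was centred on its mean, describe which enzymes varied together. They share library, depth and sampling time, and no test was made. The highest was Amd1 with Srm (r = 0.76). Arg2 with Otc reached 0.58, Sms with Cps1 0.56, Odc1 with Srm 0.55 and Otc with Oat 0.54, and the lowest was Amd1 with Oat at -0.36. Odc1 and Srm thus varied together within groups although their GF changes had opposite signs.

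**Figure D5:**
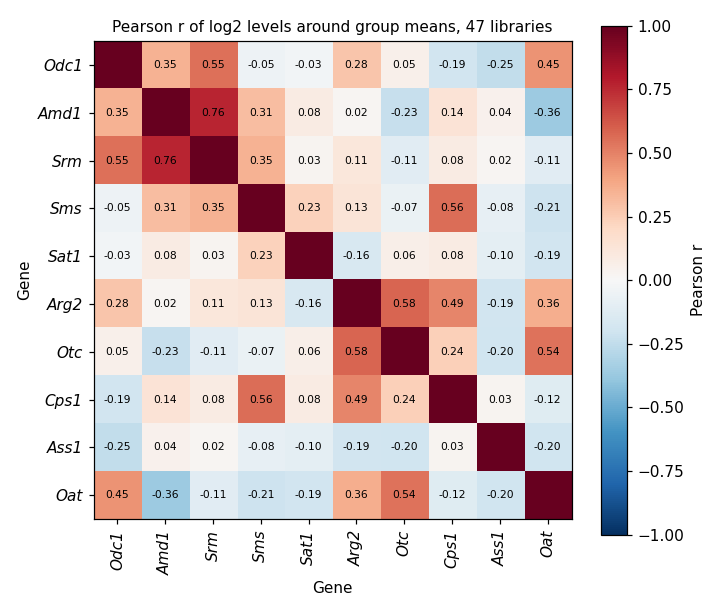
Pearson r between the log2 levels of each pair of the 10 genes over 47 libraries after centring each tissue and status group on its mean (colour scale from -1 to 1, value in each cell). Amd1 and Srm stand out at 0.76, and Ass1 has no value above 0.04.

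Without centring, the 3 most similar genes of each enzyme were taken from 12549 genes by Pearson r over 47 libraries, which the tissue difference can dominate. Srm was nearest to Nolc1 (0.864), Nol8 (0.849) and Ppan (0.841), all nucleolar proteins, and Odc1 to Chchd7 (0.863), Lass2 (0.854) and Usp35 (0.845). Arg2 was nearest to Gstm6 (0.986), Ugt1a7c (0.983) and Ugt1a8 (0.983). For Otc these were Ppip5k2 (0.882), Fbp2 (0.868) and Mtch2 (0.863), and for Cps1 Hspa9 (0.934), Gpx1 (0.924) and Ecsit (0.915). Amd1 was nearest to Tra2b (0.776), Prkrir (0.773) and Kbtbd8 (0.772), Sms to Eif2b1 (0.829), Pyy (0.825) and Zfp503 (0.822), Sat1 to Atp6v1g1 (0.928), Arpc1b (0.908) and Rgs2 (0.904), and Ass1 to Serpina1b (0.821), Ces1c (0.767) and Gas8 (0.753). Oat was nearest to Fgfr2 (0.971), Lhpp (0.934) and Plbd1 (0.901). In GENCODE M21 the span of Fgfr2 covers Oat on the same strand without shared exon bases, and the Fgfr2 row averaged 1162 CPM in GF and 1125 in convR ileum and 915 CPM in GF and 966 in convR duodenum, more than Oat itself. Whether reads of Oat were also counted for Fgfr2 in the deposited table was not tested.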

How the data were processed

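The authors deposited raw read counts per gene, taken over exons, together with summed exon lengths. Per the submitters' processing notes, reads were aligned with STAR 2.4.0i to mm10. Per the labels, libraries were made from 250 ng of ribosome-depleted total RNA with a stranded kit and 12 PCR cycles and read at 100 nt from both ends. How reads were assigned to genes (program, annotation, strand) is not given in the sources.

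Counts were used as deposited. All columns were mapped to samples by their names. Genes were filtered with edgeR's filterByExpr (minimum count 10, groups of tissue by status) and scaled by TMM. Tests were edgeR 4.0.16 quasi-likelihood F tests in R 4.3.3 with robust dispersion, two-sided, with ZT as a factor (cosine of 24 h for rhythm). DESeq2 1.42.0, other scalings, no filter, replicate blocks and left-out libraries were alternatives. Levels are CPM on TMM-scaled library sizes of all 47 libraries, and FPKM divides them by the deposited exon length. Fitting scripts were tested on simulated data. Libraries that stood apart were those whose TMM factor passed 1.2, whose pancreas or stomach markers averaged above 100 CPM or, for ileum, whose Fabp6 was below 1000 CPM, limits set after the data were seen.

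Replicate numbers are shared by groups in the labels. Deviations of same-numbered libraries of the 2 tissues correlated at 0.26 to 0.62 in convR mice (all 6 times above 0.1). This did not hold in GF mice or between GF and convR. A shared mouse and a batch that follows the replicate number would both give such a correlation, so they cannot be told apart. Fabp6 in convR duodenum was 0.96 to 1.88 CPM in libraries numbered 1 and 0.24 to 0.66 CPM in those numbered 2. In GF duodenum it was 1.07 to 2.66 CPM and 0.23 to 0.42 CPM.

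The 10 genes, the pathway and marker lists, and the tests were chosen with earlier results of these data known. All 10 are named throughout, with up to 4 genes per pathway list and comparison, those with the smallest p among genes called (some of these are not reported here), and the 3 genes most similar to each enzyme among genes with a mean of at least 2 CPM, predicted genes left out.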

Additional observations from a re-analysis of the deposited data

How the results depend on the processing

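Under other scalings, no filter, DESeq2 and the replicate block, Odc1, Otc and Srm kept sign and call between GF and convR mice in both tissues. Scaling by library size alone shifted the median log2 change of all genes by -0.13 in duodenum GF over convR and by 0.12 in GF ileum over duodenum. It left 24.5% of called genes higher (48.5% with TMM) in GF duodenum, 32.2% (46.6%) in GF ileum, 63.3% (49.8%) in GF ileum over duodenum and 55.6% (37.3%) in the interaction. It also called Sat1 in GF duodenum (-0.15, edgeR adjusted p = 0.037). Without a filter the edgeR adjusted p of Arg2 in GF ileum was 0.0765 and of Amd1 in GF ileum over duodenum 0.0527.

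Signs turned for these values, all uncalled with TMM and edgeR except Srm in GF ileum over duodenum. With library size alone: Sms -0.09 in GF duodenum, Amd1 -0.032 in GF ileum, Odc1 0.007 in GF ileum over duodenum and Sat1 0.038 in the interaction. Cps1 in GF ileum was 0.004 with DESeq2 size factors and with DESeq2. Without the libraries that stood apart: Oat 0.077 in GF duodenum, Cps1 0.027 in GF ileum, and Odc1 -0.085 and Sat1 0.081 in the interaction. In the replicate block: Arg2 -0.017 and Cps1 -0.015 in the interaction. Leaving out 1 library gave -0.009 to 0.047 for Amd1, -0.049 to 0.12 for Ass1 and -0.043 to 0.018 for Cps1 in ileum, and -0.064 to 0.027 for Ass1, -0.041 to 0.021 for Cps1 and -0.061 to 0.001 for Sat1 in duodenum, GF over convR. Leaving out a replicate number gave -0.34 to 0.13 for Odc1 and -0.059 to 0.44 for Srm in GF and -0.024 to 0.30 for Srm in convR ileum over duodenum. In the interaction it gave -0.19 to 0.36 for Arg2, -0.15 to 0.25 for Ass1, -0.15 to 0.18 for Cps1 and -0.13 to 0.012 for Sat1. The cause was not tested.

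Enzymes called rhythmic by DESeq2 numbered 1 in GF duodenum (Odc1), 1 in convR duodenum (Amd1) and 1 in GF ileum (Amd1), against 0 by edgeR. Without the libraries that stood apart it was 1 in GF duodenum (Amd1, edgeR adjusted p = 0.0307). Without a filter the time dependence called 2 in duodenum (Amd1 and Srm, edgeR adjusted p = 0.0181 and 0.0295, 1604 of all genes) and 1 in ileum (Arg2, edgeR adjusted p = 5.36e-05, 1098 of all genes). With the filter the unadjusted edgeR p of Arg2 in ileum was 0.711. Counts of all genes moved by over 1.5 times as follows. The interaction gave 409 to 1136 calls without a replicate number and 1541 without the libraries that stood apart. Time dependence gave 105 in duodenum and 37 in ileum by DESeq2, and 2 in ileum with the block. Rhythm calls by DESeq2 were 1085 in GF and 463 in convR duodenum and 638 in GF and 287 in convR ileum. Rhythm calls by edgeR with time as a factor were 147, 38, 49 and 9 in that order. Without a replicate number, edgeR calls were 2 to 94, 0, 18 to 26 and 0 to 3. In convR duodenum they were 32 without a filter, 12 with the block and 3 without the libraries that stood apart, and in convR ileum 41, 51 and 5, and 8 by library size alone.

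Same-numbered libraries correlated at every time only in convR mice across tissues. The replicate block changed no call of the 10 enzymes except in GF ileum over duodenum. There Amd1 (edgeR adjusted p = 0.0586) and Srm (edgeR adjusted p = 0.0927) no longer passed, and the libraries share only a number. Time dependence in duodenum could not be fitted without the libraries that stood apart. Srm, Sms and Ass1 had the fewest reads of the 10, down to 145, 272 and 104 in a library.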
